A study of Rattus norvegicus with 6 samples.

Results

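The renin-angiotensin genes examined here are 6 rat genes: Agt, Ace, Agtr1a, Agtr1b, Mas1 and Atp6ap2. They were listed by name, and a gene was represented by the array probes whose RefSeq transcript belongs to it. Of the 6 genes, 5 had such a probe (9 probes in all) and 4 were measurable enough to be tested, among 11748 genes tested and 15284 genes named in the whole series. Atp6ap2 had no matching probe and was not analysed here.

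Renal cortex RNA of 6 male Sprague-Dawley rats was measured, with 1 single-colour Agilent array per animal. The dosed rats (n = 3) received 2-Amino-4-nitrophenol, an aromatic nitro amine, at 750 mg/kg/day for 4 weeks. The control rats (n = 3) received Corn Oil for 4 weeks. Both groups were bought at an age of 5 weeks and were fed the same basal diet, and the labels name no transgene or deletion in either group. The comparison asks which cortical transcripts differed between the dosed and the control rats.

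The renin-angiotensin system is a cascade of peptide hormones that sets blood pressure and sodium balance. Angiotensinogen (Agt) is cut to angiotensin I, and angiotensin-converting enzyme (Ace) trims that to angiotensin II, which acts on the type 1 receptors. Rodents carry a pair of type 1 receptor genes, Agtr1a and Agtr1b, whereas angiotensin-(1-7), a shorter peptide of the cascade, acts on the receptor Mas1. Atp6ap2 encodes a membrane receptor of the cascade that is also an accessory part of the vacuolar proton pump. In the kidney the cascade also runs locally: proximal tubule cells make angiotensinogen and carry Ace on their brush border.

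The start regions of Ace and of both type 1 receptor genes are shown because they set the 2 receptor paralogs beside the enzyme that makes their ligand. Each spans 250 bases before to 50 bases after the RefSeq start (GRCr8): chr10:91409879-91410178, plus strand, for Ace, chr17:34435383-34435682, minus strand, for Agtr1a and chr2:104849213-104849512, minus strand, for Agtr1b. Capitals mark matches on either strand to TATAAA, to GGGCGG or to TGACNNNGC, the last being a core form of the antioxidant response element.
Ace: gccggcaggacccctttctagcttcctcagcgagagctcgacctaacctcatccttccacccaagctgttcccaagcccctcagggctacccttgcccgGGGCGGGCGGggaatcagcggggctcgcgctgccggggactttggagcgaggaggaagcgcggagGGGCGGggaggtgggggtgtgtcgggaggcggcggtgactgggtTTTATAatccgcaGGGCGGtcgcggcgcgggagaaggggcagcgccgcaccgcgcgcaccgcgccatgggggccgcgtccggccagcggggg
Agtr1a: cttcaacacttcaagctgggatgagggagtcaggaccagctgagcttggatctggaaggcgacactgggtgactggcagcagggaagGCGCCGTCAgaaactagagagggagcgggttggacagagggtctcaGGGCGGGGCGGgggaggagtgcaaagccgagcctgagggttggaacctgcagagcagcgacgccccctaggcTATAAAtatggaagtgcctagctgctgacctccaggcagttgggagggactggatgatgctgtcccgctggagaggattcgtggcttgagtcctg
Agtr1b: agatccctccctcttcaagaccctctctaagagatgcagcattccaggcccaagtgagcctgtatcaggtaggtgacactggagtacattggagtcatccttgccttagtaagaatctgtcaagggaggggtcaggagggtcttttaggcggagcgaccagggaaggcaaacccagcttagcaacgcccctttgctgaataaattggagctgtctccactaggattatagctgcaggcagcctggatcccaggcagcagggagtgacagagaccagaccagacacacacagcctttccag

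The motif matches differed between the receptor paralogs. TATAAA was matched once in the Agtr1a window, 45 bases before the start, and 1 match stood in the Ace window, on the reverse strand with its first base 42 bases before the start, whereas 14.2% of all 33469 RefSeq rat promoter windows hold a match. GGGCGG had 2 matches in the Agtr1a window, which share a base, and 4 in the Ace window, 2 of which overlap, against 33.1% of windows with at least 1. TGACNNNGC was matched once in the Agtr1a window, on the reverse strand, and 0 times in the Ace window (12.1% of windows hold it). The Agtr1b window held 0 matches to any of these motifs, which says only that these letters are not in it. GC made up 60.7% of the Agtr1a window, 53.7% of the Agtr1b window and 72.3% of the Ace window, with a median of 51.7% over all windows. These matches describe the letters of the windows and were not tied to any measurement of factor binding.

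All levels below are log2 values of the processed signal relative to the 75th percentile of the same array, so 0 is a signal equal to that percentile, and a level is compared only with the same probe on other arrays. Between 61.6% and 66.3% of the 61657 non-control probes were well above background on the dosed arrays, against 68.1% to 70.9% on the Corn Oil arrays, and 0 were saturated. The 75th percentile itself was 564 to 685 signal units on the dosed arrays and 743 to 852 on the Corn Oil arrays. One slide carried 5 arrays, with the 3 dosed rats in row 2 and Corn Oil replicates 1 and 3 in row 1, and within it row and group cannot be told apart. Corn Oil replicate 2 was alone on a second slide, so values within the shared slide are those without it. Defining genes of the cortex were well above background on all 6 arrays, among them all 6 markers of the early proximal tubule (S1 and S2 segments). Umod, the uromodulin gene of the thick ascending limb, had 8.44 to 8.79 in dosed rats and 8.04 to 8.17 in Corn Oil rats. The dosed arrays lay wholly above the Corn Oil arrays for 20.1% of all genes tested. The other thick limb markers with a probe, Egf, Cldn10 and Cldn16, overlapped between the groups. Egf had 4.90 to 5.02 in dosed rats and 4.97 to 5.27 in Corn Oil rats.

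None of the 4 tested renin-angiotensin genes differed between the groups past the threshold (limma, Benjamini-Hochberg adjusted p under 0.05 over all genes tested, called in 3 of 11748 genes, 0.0255%; 0.017% were higher and 0.00851% lower in dosed rats). At an unadjusted p under 0.05 the count was again 0 of 4, against 2535 genes or 21.6% of those tested. The arrays of the groups overlapped for each of the 4 genes, whereas they did not overlap for 30.2% of all genes tested. The median log2 change of the 4 genes was 0.11, beside 0.04 over all genes tested. Leaving out 1 array moved that median to between -0.0028 (without dosed replicate 2) and 0.21 (without Corn Oil replicate 1), with 0.047 without Corn Oil replicate 3, 0.066 without Corn Oil replicate 2 and 0.19 without dosed replicate 3. Their single changes ran from -0.10 for Agtr1a to 0.97 for Agt. In whole cortex, fewer cells of a type and less RNA per cell cannot be told apart. Differences as small as those of Ace could not be detected with 3 arrays per group.

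Agt, the precursor from which all angiotensins are cut, had the highest change and the widest spread of the 4 genes. Its brighter probe read -0.12, 0.35 and 1.64 in dosed replicates 1, 2 and 3, against -0.42, 0.15 and -0.78 in Corn Oil replicates 1, 2 and 3. Dosed replicate 3 stood above every other array, while dosed replicate 1 lay below Corn Oil replicate 2, so that the groups overlapped. The means were 0.62 ± 0.91 in dosed rats and -0.35 ± 0.47 in Corn Oil rats (SD, n = 3 each). The log2 change of Agt was 0.97 ± 0.48 (SE; 1.96-fold), with a 95% interval from -0.19 to 2.14. It did not pass (limma adjusted p = 0.291), and the exact two-sided permutation test gave p = 0.2, where 0.1 is the smallest value that 3 arrays against 3 allow. The spread of Agt among the dosed rats was larger than that of 97.7% of all genes tested, and its spread among the Corn Oil rats larger than that of 95.4%.

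A second Agt probe, which targets the same transcript accession, gave the same order of arrays. It read -1.32, -0.97 and 0.45 in dosed replicates 1, 2 and 3, against -1.63, -1.28 and -2.15 in Corn Oil replicates 1, 2 and 3, a difference of 1.08. Over the 6 arrays, which both probes share, their Pearson correlation was 0.99, given as a description. The animal-to-animal spread of Agt was thus read alike by both probes. Without dosed replicate 3 the log2 change was 0.46 (adjusted p = 0.496), and without dosed replicate 1 it was 1.34 (adjusted p = 0.128). Within the shared slide it was 1.22 (adjusted p = 0.359). With array weights, of which dosed replicate 3 had the highest (2.66), it was 1.78 and past the threshold (adjusted p = 0.0390). With those weights 2010 of the 11748 genes tested passed, against 3 without them. Dosed replicate 1 had a weight of 0.423, although 66.3% of its probes were well above background, against 66.1% on dosed replicate 3.

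Agt is also a liver gene, and the summed signal of liver markers ordered the arrays inside each group as Agt did. All 5 liver markers (Alb, Apoa1, Ttr, Serpina1 and Fgb, which encode plasma proteins) were well above background on every array. Their summed signal, in units of the array's 75th percentile, was 1.52, 4.79 and 6.41 in dosed replicates 1, 2 and 3, and 3.90, 8.41 and 1.80 in Corn Oil replicates 1, 2 and 3. In both groups the array with the highest sum was also the one with the highest Agt level, and the one with the lowest sum had the lowest Agt level. Single markers did not all do so: Alb, Ttr and Serpina1 were highest on dosed replicate 3 among dosed rats, whereas Apoa1 and Fgb were highest on dosed replicate 2. Between the groups the liver list did not move with Agt: of its 5 tested genes, 1 had a positive change and the median log2 change was -0.27. Its part in the spread of Agt was not tested. Markers of the last proximal tubule segment (S3, a site of angiotensinogen mRNA in the rodent kidney) had summed signals of 446.6, 484.2 and 514.7 in dosed replicates 1, 2 and 3 against 389.4, 369.3 and 418.9 in Corn Oil replicates 1, 2 and 3. The sum follows its brightest gene, Slc13a3, which read 8.73, 8.85 and 8.90 in dosed replicates 1, 2 and 3, against 8.56, 8.47 and 8.68 in Corn Oil replicates 1, 2 and 3. Slc22a7 had -1.26 to -0.58 in dosed rats and -3.77 to -3.03 in Corn Oil rats, and Slc7a13 had 4.48 to 5.22 in dosed rats and 3.14 to 3.86 in Corn Oil rats, while Slc5a1 and Slc22a13 overlapped between the groups. Of the 5 S3 genes 3 did not overlap and were higher (20.1% of all genes tested lay wholly above), and 0 passed the test (limma; median log2 change 0.33). All 3 of those were highest on dosed replicate 3, the array highest in Agt. The S3 sum ordered the dosed arrays as Agt did, and the Corn Oil arrays in the reverse order of Agt. The early proximal tubule list went the other way: 1 of its 6 genes had a positive change, and the median log2 change was -0.24. In that list 1 gene did not overlap and was higher (Slc34a1), 2 did not overlap and were lower (Lrp2 and Slc5a12), and 0 passed (limma). Among all genes tested, 20.1% lay wholly above and 10.1% wholly below. Adipocyte markers, which would come with perirenal fat, another source of Agt, summed to 1.78 to 2.17 in dosed rats and 1.22 to 1.58 in Corn Oil rats (4 of 5 markers with a probe, 3 well above background on all arrays). The groups did not overlap in that sum, but they did in Adipoq, its brightest gene, which was lowest on dosed replicate 3, while Cidec was highest there. The part of the proximal tubule and adipocyte markers in the Agt difference was not tested.

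**Figure D1:**
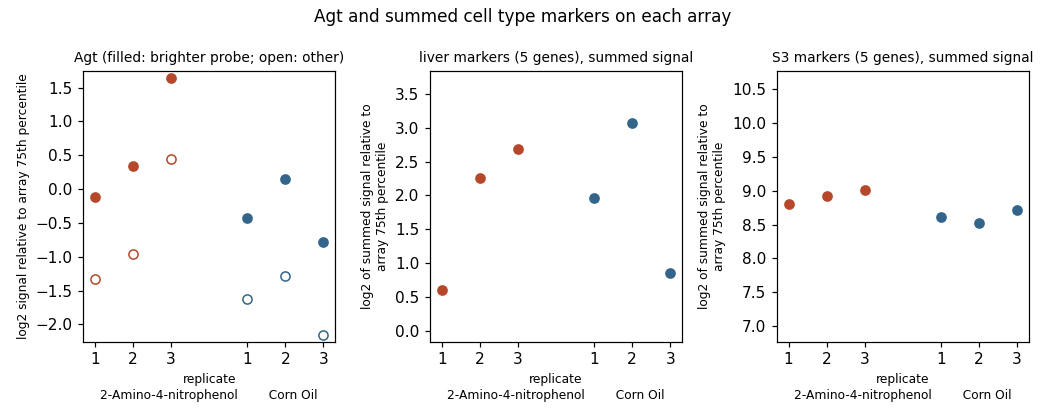
The left panel shows Agt by array (y axis: log2 signal relative to the array's 75th percentile; filled points: brighter probe; open points: other probe), and the other panels show the log2 of the summed signal of 5 liver markers and of 5 S3 markers on the same arrays. Each point is 1 animal (x axis), red for 2-Amino-4-nitrophenol and blue for Corn Oil, and the 3 y axes have the same span. Dosed replicate 3 is highest in Agt on both probes, and the liver sum is highest on dosed replicate 3 within its group and on Corn Oil replicate 2 within its own.

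Ace, which encodes the enzyme that makes angiotensin II and also breaks down bradykinin, had nearly the same mean in both groups. Its brightest probe read -1.48, -1.55 and -1.55 in dosed replicates 1, 2 and 3, against -1.27, -1.66 and -1.64 in Corn Oil replicates 1, 2 and 3. All dosed values fell between the lowest and the highest Corn Oil value. The means were -1.53 ± 0.04 in dosed rats and -1.52 ± 0.22 in Corn Oil rats (SD, n = 3 each), and the log2 change was -0.0040 ± 0.12 (SE), with a 95% interval from -0.30 to 0.29. It did not pass (limma adjusted p = 0.990), and 98.4% of all genes tested had a lower p. The sign of the change turned under 7 of 18 alternative settings. Within the shared slide the change was -0.073, and after spike-in scaling it was -0.32 (adjusted p = 0.368). Endothelial markers, of another cell type that carries Ace, summed to 33.8 to 34.3 in dosed rats and 33.8 to 35.7 in Corn Oil rats. These sums overlapped and follow their brightest gene, Kdr. Of the 6 markers 5 had a probe, all 5 well above background on every array, with a median log2 change of 0.06. Only Tek did not overlap, with -2.852 to -2.759 in dosed rats and -2.434 to -2.325 in Corn Oil rats. Over all genes tested 10.1% lay wholly below, and 0 of the 5 passed (limma).

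The dimmer Ace probes differed from each other on dosed replicate 2. The second probe (A_64_P010531) read -1.37 on dosed replicate 2, against -4.07 and -3.85 on dosed replicates 1 and 3 and -4.19 to -3.21 on the Corn Oil arrays. The third probe (A_43_P11457) read -3.65 on dosed replicate 2, which was the lowest dosed value, with -3.49 and -3.33 on dosed replicates 1 and 3 and -4.18 to -3.17 on the Corn Oil arrays. A single probe therefore stood high on a single array, and the other probes of the gene did not. All 3 probes carry the same transcript accession, and the difference between group means was 0.71 for the second probe and 0.24 for the third. Averaging the 3 probes gave a log2 change of 0.31 (adjusted p = 0.555).

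Agtr1a, the predominant type 1 receptor gene of the rodent kidney, also overlapped between the groups. Its single probe read 2.35, 2.78 and 2.57 in dosed replicates 1, 2 and 3, against 2.93, 2.45 and 2.63 in Corn Oil replicates 1, 2 and 3. The highest and lowest of the 6 values were Corn Oil replicate 1 and dosed replicate 1. The means were 2.57 ± 0.22 in dosed rats and 2.67 ± 0.24 in Corn Oil rats (SD, n = 3 each). The log2 change was -0.10 ± 0.17 (SE), with a 95% interval from -0.51 to 0.30, and did not pass (limma adjusted p = 0.739; exact two-sided permutation p = 0.6). The change was -0.42 after spike-in scaling (adjusted p = 0.255), -0.22 with quantile-normalized arrays, -0.21 within the shared slide, -0.21 without dosed replicate 2, 0.027 without Corn Oil replicate 1 and 0.0056 without dosed replicate 1.

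Agtr1b, the other type 1 receptor gene, had a positive change that rested on a single animal. Its brighter probe read -0.56, 0.06 and -0.71 in dosed replicates 1, 2 and 3, against -0.46, -0.65 and -0.75 in Corn Oil replicates 1, 2 and 3. Only dosed replicate 2 lay above the Corn Oil range on that probe. The means were -0.40 ± 0.41 in dosed rats and -0.62 ± 0.15 in Corn Oil rats (SD, n = 3 each). The log2 change was 0.22 ± 0.21 (SE), with a 95% interval from -0.30 to 0.74, and did not pass (limma adjusted p = 0.571; exact two-sided permutation p = 0.6). Without dosed replicate 2 it was -0.012, without dosed replicate 3 it was 0.37, and within the shared slide it was 0.20. The dimmer Agtr1b probe averaged -3.68 ± 0.29 in dosed rats and -3.49 ± 0.40 in Corn Oil rats (SD, n = 3 each), a difference of -0.19 that ran opposite to the brighter probe, and the mean of both probes gave a change of 0.015. Agtr1a and Agtr1b have closely related coding sequences, and cross-hybridisation between their probes was not assessed. Over the 6 arrays the Pearson correlation between the paralogs was 0.48, over probes read from the same RNA.

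Mas1, the receptor for angiotensin-(1-7), was near the limit of detection in renal cortex. Its only probe was well above background on 1 of 3 dosed arrays and on 1 of 3 Corn Oil arrays, and so it was not tested. The processed signal was 9.95, 23.0 and 15.3 units in dosed replicates 1, 2 and 3, against 30.4, 11.8 and 16.2 units in Corn Oil replicates 1, 2 and 3. The 2 arrays with a readable signal were dosed replicate 2 and Corn Oil replicate 1, and no fold is given.

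**Figure D2:**
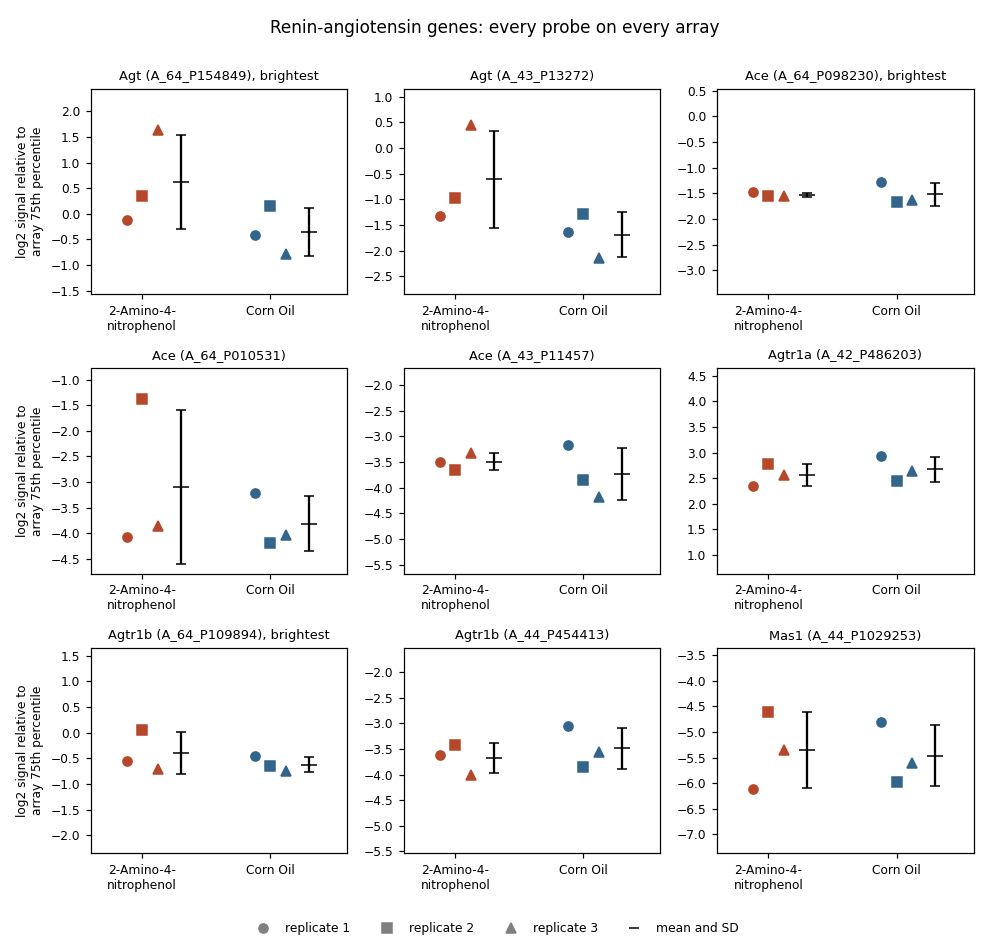
Each panel is 1 probe of a renin-angiotensin gene; the y axis is the log2 signal relative to the array's 75th percentile, with the same span in each panel, and the x axis gives 2-Amino-4-nitrophenol (red) and Corn Oil (blue) with 1 point per animal and the mean and SD beside them. The groups overlap in all 9 panels, both Agt probes stand highest on dosed replicate 3, and the second Ace probe stands high on dosed replicate 2 alone.

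The genes most like each member over the 6 arrays were taken as those with the highest Pearson correlation among 11065 other genes well above background on all arrays. For Agt they were Nrsn2 (0.978) and Spmip11 (0.977), and both were also highest on dosed replicate 3. For Ace they were the leukocyte genes Ptprcap (0.989) and Il2rb (0.987), which like Ace were highest on Corn Oil replicate 1. For Agtr1a they were Ap3m2, a subunit of an endosomal adaptor complex, and Mark1, a microtubule-regulating kinase, at 0.994 each. For Agtr1b they were Lst1 (0.995), a leukocyte gene, and the signalling ligand Wnt11 (0.990), which were highest on dosed replicate 2. With 6 arrays and this many genes, correlations this high are a description of likeness only. None of these 8 genes passed the test (limma adjusted p from 0.246 to 0.960). Among the 4 members themselves the correlations ran from -0.18 between Agt and Agtr1a to 0.58 between Ace and Agtr1a.

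Other genes of the angiotensin cascade were read from 5 lists holding 45 genes, of which 44 had a probe and 38 were tested. In these lists 0 of 38 genes passed the threshold (limma). At an unadjusted p under 0.05, 8 of the 38 were higher in dosed rats and 0 lower, or 21.1% and 0%, beside 14.3% and 7.29% of all genes tested. The dosed arrays lay wholly above the Corn Oil arrays for 13 of the 38 (34.2%) and wholly below for 2 (5.26%), beside 20.1% and 10.1% of all genes tested. Their median log2 change was 0.12. These counts depend on the scaling and were not repeated under other settings. With quantile-normalized arrays Ctsd, Nr1h3, Atp6ap1 and Atp6v1f, all among the 8, had changes of only 0.060, 0.041, 0.0067 and 0.088. Mme and Bdkrb2, also among the 8, had 0.73 and 0.42.

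Among enzymes that make or break angiotensin peptides, neprilysin (Mme), a brush border peptidase that makes angiotensin-(1-7) from angiotensin I, read 2.14, 2.15 and 2.88 in dosed replicates 1, 2 and 3, against 1.75, 1.63 and 1.36 in Corn Oil replicates 1, 2 and 3. The groups did not overlap, and dosed replicate 3, the array highest in Agt, was also highest in Mme. The log2 change of Mme was 0.81 ± 0.23 (SE; 1.75-fold) and did not pass (limma adjusted p = 0.149). It was 0.57 without dosed replicate 3, 0.84 within the shared slide and 1.18 with array weights, where it passed (adjusted p = 0.0256). With array weights 2010 of the 11748 genes tested passed. Ctsd, which encodes the lysosomal protease cathepsin D, read 6.97, 6.96 and 6.91 in dosed replicates 1, 2 and 3, against 6.56, 6.69 and 6.55 in Corn Oil replicates 1, 2 and 3. The groups did not overlap, and its log2 change of 0.35 ± 0.08 (SE; 1.27-fold) did not pass (limma adjusted p = 0.127). The change of Ctsd was 0.39 within the shared slide, 0.060 with quantile-normalized arrays and 0.027 with spike-in scaling, and it passed only with array weights (0.34, adjusted p = 0.0264). Aminopeptidase A (Enpep), which turns angiotensin II into angiotensin III, overlapped between the groups, with means of 4.18 ± 0.20 in dosed rats and 3.99 ± 0.05 in Corn Oil rats (SD, n = 3 each) and a log2 change of 0.19 ± 0.12 (adjusted p = 0.368). The change of Enpep was 0.025 with quantile-normalized arrays, 0.12 without dosed replicate 1 and 0.30 without dosed replicate 2. Its dimmer probe had a difference of 0.031 between group means, and the mean over probes gave a change of 0.11. Of the 10 tested peptide enzymes, 5 had dosed arrays wholly above the Corn Oil arrays and 1 wholly below (20.1% and 10.1% of all genes tested). The lowest change was -0.19, for Prcp, and 0 passed (limma).

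The remaining receptors gave smaller values. Neither probe of Agtr2, the type 2 receptor gene, was above background on any of the 6 arrays by the scanner's flag. Of 5 tested receptors and receptor-binding proteins, 2 had a positive change and 0 passed (limma, also 0 at an unadjusted p under 0.05). At that unadjusted p, 14.3% of all genes tested were higher and 7.29% lower. The dosed arrays lay wholly above the Corn Oil arrays for 0 of the 5 and wholly below for 1 (20%). Over all genes tested these shares were 20.1% and 10.1%. Mtus1, whose product binds the type 2 receptor, had the lowest change, -0.17 ± 0.10 (adjusted p = 0.337; -0.10 without Corn Oil replicate 3). Its brightest probe did not overlap between the groups, nor did A_42_P556316, whereas its probes A_44_P337271, A_43_P14440 and A_64_P097603 overlapped. The difference between group means ran from -0.34 to -0.11 over the dimmer Mtus1 probes. Arrb1, an arrestin that shuts off type 1 receptor signalling, had the highest change, 0.22 ± 0.13 (adjusted p = 0.376; 0.12 without Corn Oil replicate 3 and 0.14 without dosed replicate 2). Agtrap, which promotes internalisation of the type 1 receptor, had -0.02 ± 0.09.

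The kinin genes, whose peptide bradykinin Ace degrades, included another liver gene. Kng1, a kininogen gene, read -0.77, -0.36 and -0.18 in dosed replicates 1, 2 and 3, against -0.28, -0.68 and -1.95 in Corn Oil replicates 1, 2 and 3. Its change of 0.53 ± 0.43 (adjusted p = 0.497) rested on Corn Oil replicate 3: it was 0.042 without that array and 0.88 without Corn Oil replicate 1. Corn Oil replicate 3 was also the lowest array for Agt and the lowest Corn Oil array for the summed liver markers. Corn Oil replicate 2, the highest Corn Oil array in Agt and in that sum, lay below Corn Oil replicate 1 in Kng1. Among the dosed rats Kng1 had the order of Agt and of the liver sum. The part of the liver signal in Kng1 was not tested. Bdkrb2, the constitutive bradykinin receptor, had 0.39 ± 0.12 without overlap between the groups on its brighter probe (adjusted p = 0.158; 0.073 after spike-in scaling). Its other probe overlapped, with -4.83 to -4.04 in dosed rats and -4.95 to -4.47 in Corn Oil rats. Of the 5 kinin genes 0 passed (limma; 1 was higher at an unadjusted p under 0.05, or 20%, beside 14.3% of all genes tested).

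Genes of juxtaglomerular cells and their signals had changes from -0.09 to 0.32, and 0 of 6 passed (limma; 1 at an unadjusted p under 0.05). Of 6 tested, 1 (16.7%) had dosed arrays wholly above the Corn Oil arrays, beside 20.1% of all genes tested. Among all genes tested, 14.3% were higher at an unadjusted p under 0.05. That 1 gene was Nr1h3, which encodes the nuclear receptor LXR alpha and had 0.20 ± 0.08 (adjusted p = 0.209; 0.041 with quantile-normalized arrays). The connexin gene Gja4 had 0.30 ± 0.24 (adjusted p = 0.484), with 0.097 without dosed replicate 2 and 0.57 without dosed replicate 1. Ptgs2, the inducible cyclooxygenase of the macula densa, had 0.32 ± 0.37 (limma adjusted p = 0.632), with its 3 dosed values spread from -5.23 to -3.98. The Ptgs2 signal was dim, with means of -4.69 in dosed rats and -5.01 in Corn Oil rats, and the groups overlapped. Vascular smooth muscle and mesangial markers, the cell types nearest to juxtaglomerular cells, summed to 3.93, 6.25 and 5.74 in dosed replicates 1, 2 and 3, against 4.64 to 5.69 in Corn Oil rats. These sums overlapped between the groups, with 6 of 7 markers well above background on all arrays and Cnn1 on none.

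In place of Atp6ap2, its partner subunits of the vacuolar proton pump were read. Of 12 tested subunit genes, 6 had dosed arrays wholly above the Corn Oil arrays, 0 wholly below, and 0 passed (limma; 3 at an unadjusted p under 0.05, all higher). Among all genes tested, 20.1% lay wholly above and 14.3% were higher at an unadjusted p under 0.05. Their median log2 change was 0.13. Atp6ap1, an accessory subunit like Atp6ap2, read 5.06, 5.12 and 5.06 in dosed replicates 1, 2 and 3, against 4.79, 4.88 and 4.92 in Corn Oil replicates 1, 2 and 3, a change of 0.22 ± 0.08 (adjusted p = 0.190). Atp6v1f had 0.30 ± 0.11 (adjusted p = 0.199). After scaling to spike-in controls, which shifted the median of all genes to -0.28, Atp6ap1 had -0.10 and Atp6v1f -0.024, and with quantile-normalized arrays Atp6ap1 had 0.0067 and Atp6v1f 0.088.

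**Figure D3:**
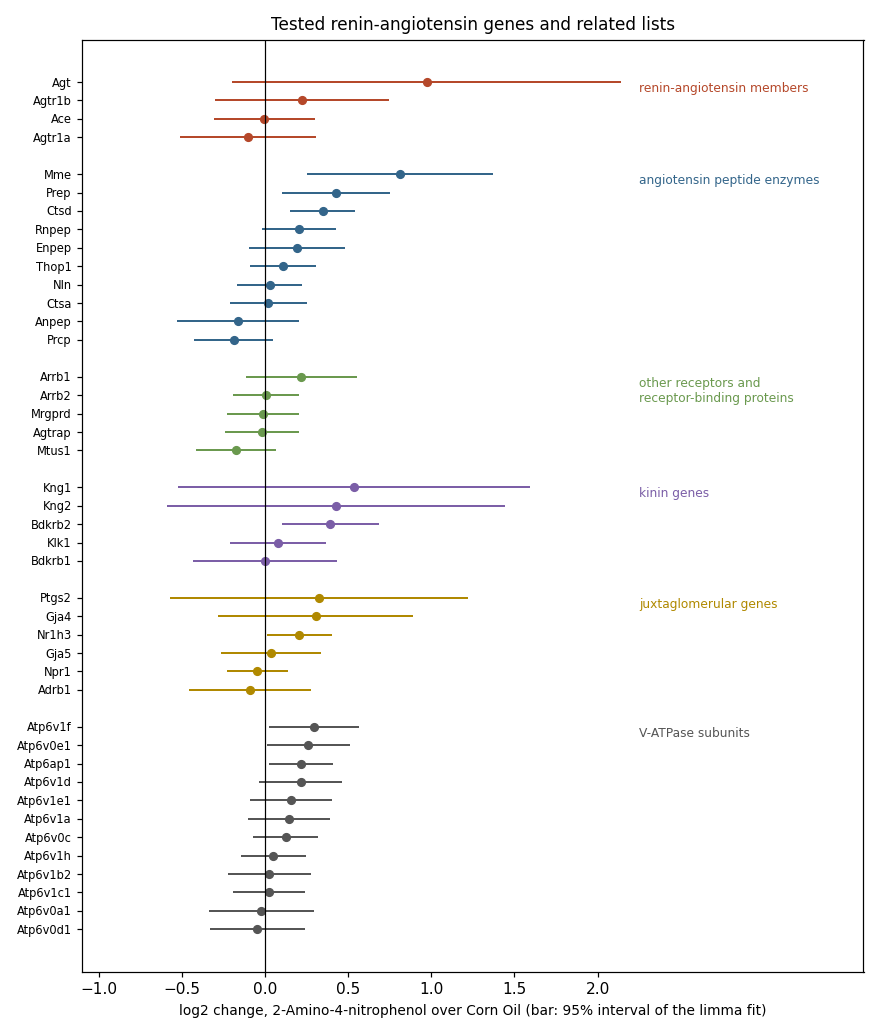
Log2 change of 2-Amino-4-nitrophenol over Corn Oil (x axis) for the 4 tested renin-angiotensin genes and the 38 tested genes of the 5 related lists (y axis), with bars for the 95% interval of the limma fit over 3 arrays per group. The intervals of Agt, Agtr1b, Ace and Agtr1a all include 0, whereas those of 8 of the 38 other genes, Mme and Ctsd among them, lie above 0 and those of 0 lie below it, with no adjustment for the number of genes tested.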

How the data were processed

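Each rat's renal cortex RNA was read on its own Agilent array in 1 colour (Cy3). The intensity used is the scanner software's processed signal as deposited, background-subtracted and detrended, per the file headers, by Agilent Feature Extraction 10.7.1.1 (10.7 per the submitters' processing notes), and the other deposited columns used hold 0 or 1 flags and the median signals that the normexp alternative starts from. The values of the deposited series table are a ratio of the intensity to the array's 75th percentile, as found by setting it against the scanner files. Its columns fitted a scanner file of the right group but of a differently numbered replicate (log2 differences with an SD of 0.00033 to 0.00035 over 36961 probes), so replicate numbers here follow the scanner files.

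From the intensities, log2 values minus the 75th percentile over the 61657 non-control probes were computed. A probe entered the fit if the scanner called it well above background in every animal of either group and no array flagged it as an outlier (64 were flagged), which left 40894. Probes were named through RefSeq accessions of the GRCr8 assembly (27460 probes, 15284 genes), and each gene was represented by its brightest kept probe. The scanner grid names another build, so no probe coordinates are given, and the start regions are from RefSeq (GRCr8). The fit used limma 3.58.1 (lmFit, eBayes) under R 4.3.3, with Benjamini-Hochberg adjustment over 11748 genes. The fit was tested on simulated data with planted changes larger than that of any member in the fit described here. That test therefore does not show how well smaller changes are found. The series design calls the animals biological replicates, and 3 arrays per group limit the precision.

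The members, the lists and the tests were chosen with earlier results of these data known. Some listed genes are not reported here and were left out of the lists and their counts. Named outside the 6 members were Agtr2, Mme and Enpep and the 2 genes of each list with the lowest p. For each member the 2 most alike genes were also named. Prcp, Agtrap, Ptgs2, Kng2 and the single markers were named after their values were seen. Of the 14 cell type lists, 6 are given beside the results. In 7 others (thick limb, distal tubule, principal cell, intercalated cell, podocyte, fibroblast and macrophage) 0 genes passed, and the median log2 change ran from -0.45 to 0.39; in the adrenal cortex list 3 of 5 genes were well above background on 0 arrays.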

Additional observations from a re-analysis of the deposited data

How the results depend on the processing

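Under the 19 alternative settings the count of renin-angiotensin genes past the threshold stayed at 0 except with array weights, where it was 1 (Agt, log2 change 1.78, limma adjusted p = 0.0390). Those weights ran from 0.364 for dosed replicate 2 to 2.66 for dosed replicate 3, and with them 2010 genes passed in all, among them Nr1h3 (0.25) and 3 of the 10 peptide enzymes, with Mme (1.18) and Ctsd (0.34). The count over all genes was 3, and it was 56 with normexp on median signals, 9 after spike-in scaling, 69 with trend and robust settings, 132 at an adjusted p under 0.1, and 0 with no filter on dim probes (3496 genes at an unadjusted p under 0.05), with the mean over probes (2443), with the slide block (1764) and with the replicate block (2121). Leaving out each array gave 0 to 70 genes: 21, 70 and 2 without dosed replicates 1, 2 and 3, and 0 without any one of the Corn Oil replicates (1533 to 1764 at an unadjusted p under 0.05). The median change of the members was -0.21 after spike-in scaling, 0.010 with array weights and -0.0028 to 0.21 without each array in turn. Ace had 0.070 with normexp, 0.027 after quantile normalization, 0.028 after median scaling and 0.31 with the mean over probes. After spike-in scaling Ace had -0.32, Agtr1a -0.42, Agtr1b -0.10, Enpep -0.13, Arrb1 -0.10, Nr1h3 -0.12, Gja4 -0.015, Atp6ap1 -0.10 and Atp6v1f -0.024. Without each array in turn, Ace ranged from -0.073 to 0.12, Agtr1a from -0.21 to 0.027 and Agtr1b from -0.012 to 0.37. Spike-in scaling subtracts 1 number per array from all its genes. It therefore lowered the change of every gene by the same amount, and the median over all genes went from 0.04 to -0.28. Why the spike-in controls and the 75th percentile gave different scales was not tested. The change of Agt stayed between 0.46 and 1.78 and that of Mme between 0.49 and 1.18 under the 18 settings that give a change. The smaller changes of Ctsd and Bdkrb2 came down to 0.027 and 0.073 by the same shift under spike-in scaling. Arrays of the same number share only a number (correlation of deviations 0.006, -0.05 and -0.032), and with the replicate block 0 members passed and Agt had an adjusted p of 0.367.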
